A study of Mus musculus with 5 samples.

Results

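Potassium channel subunits were followed through the iridocorneal angle of glaucomatous DBA/2J mice and their Gpnmb+ controls. The set holds 93 of the 94 protein-coding mouse genes whose symbol starts with Kcn, taken by symbol from a table of 56941 genes. No measured value enters this rule, although the set was chosen with earlier results of these data known. Of these 93 members, 83 had at least 10 counts in at least 1 pool and were tested together with 19713 genes in all.

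DBA/2J mice are homozygous for a mutant allele of Gpnmb and acquire a pigmentary form of glaucoma with age. Gpnmb+ mice, strain DBA/2J-Gpnmb+/SjJ, carry the functional allele on the same strain background, the mutant Tyrp1 allele included, and served as controls. Libraries of mRNA from angle tissue of untreated mice aged 12 months and of both sexes were sequenced for 3 DBA/2J pools and 2 Gpnmb+ pools. The study design gives 3 mice per pool, whereas the library names list 3 animals for every DBA/2J pool but 2 for either Gpnmb+ pool.

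Potassium channels let potassium leave or enter the cell and so set the resting membrane potential, the shape of electrical responses, cell volume and the recycling of potassium by ion-transporting epithelia. Pore-forming subunits fall into voltage-gated, calcium- or sodium-activated, inward rectifier and tandem-pore leak families, and accessory subunits change the trafficking and gating of the pores. In the front of the eye they are known for roles in aqueous humor secretion by the ciliary epithelium, in the contractility and volume of trabecular meshwork cells and in the tone of vascular and ciliary smooth muscle.

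Total counts ran from 43900661 to 49837758 per pool, and a count of 0 allowed a level of up to 0.0591 to 0.0699 CPM, the count scaled to library size with edgeR's TMM factors. Gpnmb had 2042, 2234 and 1946 counts across the 3 DBA/2J pools, against 129659 and 110568 in the 2 Gpnmb+ pools, which matches the labels. The summed level of 4 Y-linked genes was 159, 199 and 66.2 CPM in the DBA/2J pools and 0.0394 and 0.102 CPM in the Gpnmb+ pools. The Gpnmb+ pools therefore held almost no Y-linked RNA although both sexes are named in the labels, and genotype and sex cannot be told apart in any comparison here. The 4 trabecular meshwork markers found, of 5 listed, were all present and lower in DBA/2J, with 0 called in edgeR and 2 at an unadjusted p-value with 1.5-fold, at a summed 936 to 1145 CPM in DBA/2J and 1418 and 1435 CPM in Gpnmb+. Sums overlapped between the genotypes for markers of endothelium (372 to 507 CPM and 412 and 454 CPM), corneal epithelium (7015 to 11673 CPM and 11436 and 12830 CPM) and macrophages (2963 to 4044 CPM and 2855 and 3716 CPM). Lens fiber markers summed to 17.8 to 23.7 CPM and to 16.3 and 17.8 CPM, with Lim2 at 0 in all pools. None of these 4 lists held a gene called in edgeR, and 1 corneal, 1 lens and 1 macrophage marker passed an unadjusted p-value with 1.5-fold.

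Gpnmb+ pool 2 stood apart in photoreceptor RNA. The summed level of 8 photoreceptor markers, among them Pde6b, Gnat1, Rcvrn, Prph2, Sag, Crx and Nrl, was 604, 858 and 583 CPM in the DBA/2J pools, 350 CPM in Gpnmb+ pool 1 and 1911 CPM in Gpnmb+ pool 2. All 8 markers were at least 2-fold higher in Gpnmb+ pool 2 than in pool 1, and none was at 0 in all pools. Between the genotypes all 8 had a log2 fold change below 0, with 0 called in edgeR and 0 at an unadjusted p-value with 1.5-fold. In bulk tissue of this kind, fewer cells of a type and less RNA per cell cannot be told apart, and the p-values given here measure only the spread between these pools.

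The sequence shared by the pore-forming members is the potassium selectivity filter, the short stretch of the pore that lets potassium pass and holds back sodium. It was searched in frame in the coding sequence of the canonical GENCODE M39 transcript of each gene, as the 12 letters NTNGGNTNNGGN, on the coding strand alone. It is shown here because most pores and the silent subunits described later share these letters. It was found in 74 of the 76 pore-forming and silent members (97.4%), in 0 of the 17 accessory and other members and in 10.6% of all 21565 protein-coding canonical transcripts. Kcnk1 and Kcnk7 lacked these letters, which does not show that they lack a filter. The pattern is loose, and Kcnq1 matched it at codons 312 to 315 and again at codons 346 to 349, so a match need not be the filter. The match is a description of the letters and not a test of function. In the 30-base stretches printed here, from GRCm39, capitals mark the 12 matched letters.
Kcnc4, chr3:107355106-107355135, minus strand: atgacaacgCTTGGCTATGGGgacatgtat
Kcnb2, chr1:15780264-15780293, plus strand: atgaccactGTGGGCTACGGTgacatttac
Kcnq3, chr15:65895571-65895600, minus strand: ctggccaccATTGGTTATGGAgacaagaca
Kcnf1, chr12:17225053-17225082, minus strand: atgaccacaGTGGGCTATGGTgacatctac
Kcng4, chr8:120352640-120352669, minus strand: atgacgaccGTGGGCTATGGGgacatggtc
Kcns3, chr12:11141567-11141596, minus strand: atgaccacaGTGGGCTATGGAgacacccac
Kcnv2, chr19:27311048-27311077, plus strand: atctccaccGTGGGCTATGGAgacatgtac
Kcnj3, chr2:55327633-55327662, plus strand: gaggccaccATCGGCTATGGCtaccgctac
The inward rectifier subunit Kcnj3 carried the same 12-letter pattern as the voltage-gated and silent subunits, with different letters after it.

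Levels between genes were compared only as RPKM, the CPM per kilobase of exon. A mean of 1 RPKM or more over the 5 pools was reached by 32 of the 93 members, and 34 had a mean under 0.1 RPKM. Kcnk1, which encodes the leak channel TWIK-1, had the highest mean level, 17.7 RPKM. It was followed by Kcnh1 (8.64 RPKM), a voltage-gated channel of the ether-a-go-go family, and by the inward rectifiers Kcnj15 (8.28 RPKM) and Kcnj13 (7.33 RPKM), the latter a channel of transporting epithelia such as the retinal pigment epithelium. Kcne4, an accessory subunit that inhibits several voltage-gated channels, reached 6.97 RPKM, and Kcnk5 reached 5.06 RPKM. The spread between pools overlapped for Kcnh1, Kcnj15, Kcnj13 and Kcne4, so the order of neighbours among them is not resolved. Summed over all members, the level was 121, 111 and 125 RPKM in DBA/2J pools 1 to 3 and 113 and 113 RPKM in the Gpnmb+ pools, which overlap.

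**Figure D1:**
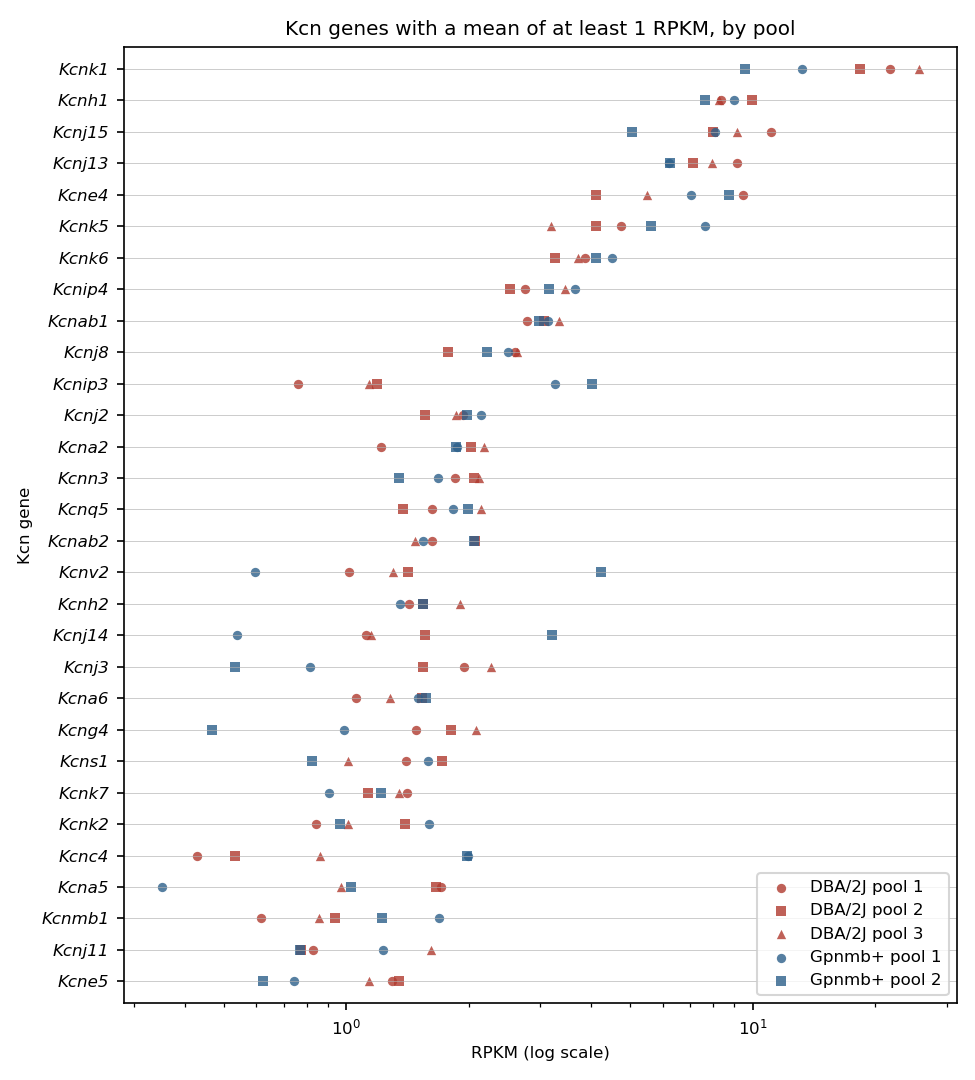
RPKM (log axis) of 30 Kcn genes with a mean of at least 1 RPKM, 1 point per pool, with DBA/2J in red and Gpnmb+ in blue. Kcnk1 lies highest at a mean of 17.7 RPKM, and the points of single pools spread widely for Kcnv2 and Kcnj14.

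Counts were at 0 in all 5 pools for Kcna10, Kcnk16, Kcnk18 and Kcnmb3, and Kcnh4 had at most 3 counts in any pool. Together with Kcnh8, Kcnj1, Kcnj6, Kcnk12 and Kcnk15 these made up the 10 members below the count minimum. Another 26 tested members had a mean under 50 counts. These levels limit the comparison. The median width of the 95% interval of a log2 fold change was 1.47 over the tested members and 0.876 over all genes tested.

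Between the genotypes, 1 of the 83 tested members was called, Kcnip3, which fell in DBA/2J. A call needed adjusted p to be 0.05 or less in the quasi-likelihood test of edgeR after Benjamini-Hochberg adjustment, together with a 1.5-fold change, and 0.796% of all genes passed, 0.502% higher and 0.294% lower in DBA/2J. The log2 fold change, DBA/2J relative to Gpnmb+, was above 0 in 36 members and below 0 in 47, with a median of -0.15 against -0.02 over all genes tested. With an unadjusted p-value (0.05) in place of the adjusted one, 18 members passed, 9 higher and 9 lower (10.8% of members each way), where 8.67% of all genes passed, 4.2% higher and 4.48% lower. Of these 18 members 10 passed again whichever single pool was left out, and 8 did not in at least 1 case, Kcna4, Kcng1, Kcng3, Kcnk5, Kcnmb1, Kcnq1 and Kcns2 among them. DESeq2 called 11 members, 4 higher and 7 lower, where it called 4.7% of all genes, 2.76% higher and 1.94% lower. The 4 higher were Kcnb2, Kcng4, Kcnj3 and Kcnk1. The 7 lower were Kcnc4, Kcnf1, Kcnip3, Kcnk5, Kcnmb1, Kcnq3 and Kcns3. The pools of the genotypes did not overlap for 29 members, 11 higher and 18 lower in DBA/2J. That is 34.9% of the members beside a background of 34.5% of all genes.

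**Figure D2:**
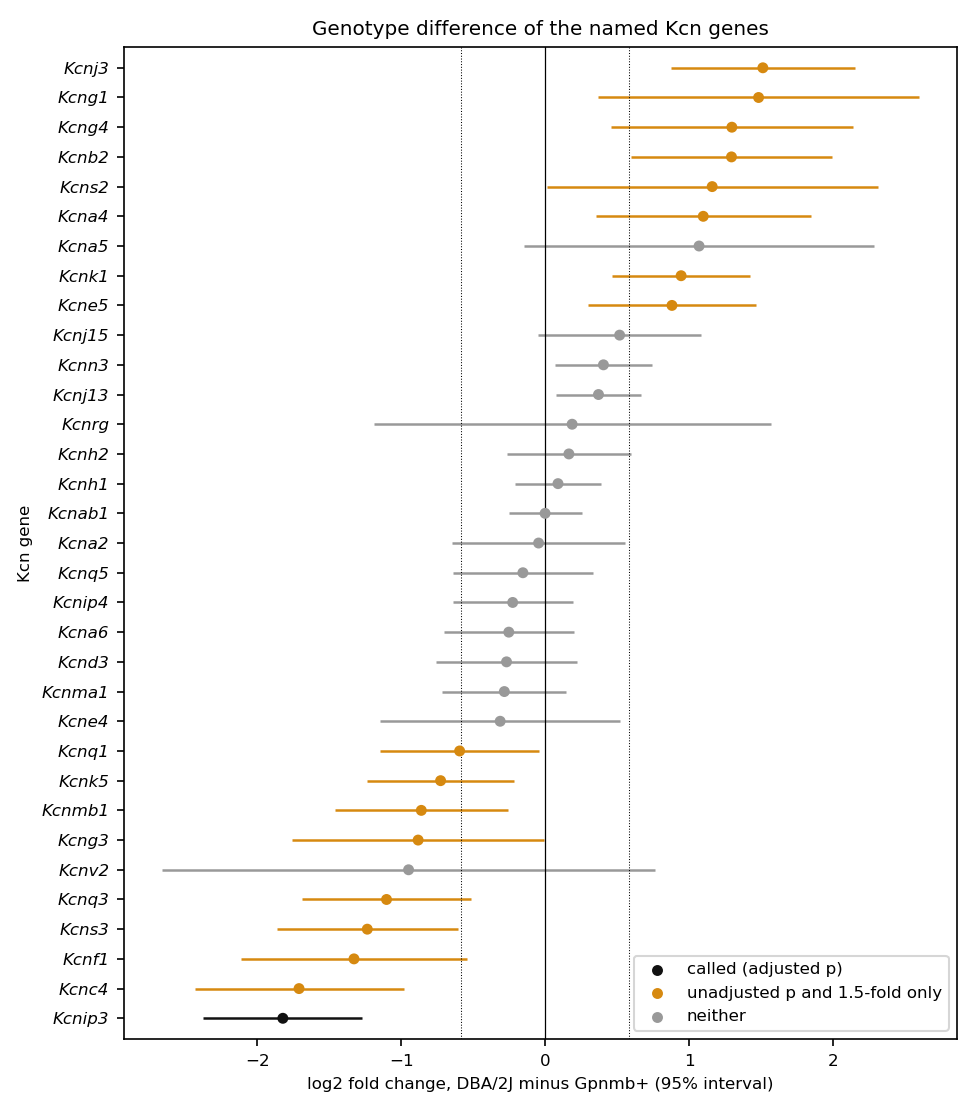
Log2 fold change (DBA/2J minus Gpnmb+) of 33 named Kcn genes with its 95% interval, and dotted lines at 1.5-fold either way. Only Kcnip3 (black) passed the adjusted threshold in edgeR, and genes in orange passed the unadjusted p-value and 1.5-fold.

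Kcnip3 encodes the calcium-binding protein KChIP3, also known as calsenilin or DREAM, which attaches to voltage-gated Kcnd channels at the membrane and represses transcription in the nucleus. The gene lies at chr2:127298418-127364014 on the minus strand of GRCm39. Kcnip3 had 137, 207 and 206 counts across the 3 DBA/2J pools, against 671 and 799 in the 2 Gpnmb+ pools. All DBA/2J pools were below both Gpnmb+ pools, and no exon of another gene overlaps it. Its level was 4.17 ± 0.952 CPM (SD, n = 3) in DBA/2J and 14.8 ± 2.2 CPM (SD, n = 2) in Gpnmb+, 3.54-fold lower in DBA/2J. On the log2 scale the difference was -1.82 (standard error 0.23, 95% interval -2.38 to -1.27, adjusted p = 0.0382 by edgeR's quasi-likelihood test). With each pool left out in turn it stayed between -1.65 and -1.97, while the adjusted p was above the threshold in every case. It was 0.0991, 0.114 and 0.124 without DBA/2J pools 1, 2 and 3, and 0.0504 and 0.151 without Gpnmb+ pools 1 and 2.

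None of the other KChIP genes passed the adjusted or the unadjusted threshold. Kcnip4, at 3.11 RPKM the highest of the class, had 444, 394 and 558 counts against 672 and 560, pools that overlap, and log2 fold change -0.23 (95% interval -0.64 to 0.19). Kcnip1 and Kcnip2 had at most 56 counts in any pool. The pore-forming partners of KChIPs, Kcnd1, Kcnd2 and Kcnd3, had log2 fold changes of 0.27, -0.69 and -0.27, and none passed. Kcnd3, the most abundant of them, had 189, 269 and 229 counts against 314 and 312, and Kcnd2 had 16, 19 and 19 against 34 and 32. The pools of Kcnd2 did not overlap.

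Schwann cell markers were lower in the same pools as Kcnip3. In the list of 9 Schwann cell markers 8 were lower in DBA/2J, with 2 called, S100b among them. Their summed level was 317, 365 and 340 CPM against 423 and 473 CPM, with no defining marker at 0. The unadjusted p-value with 1.5-fold was passed by 5, and 7 were lower without overlap of the pools. Of all genes tested 0.294% were called lower, 4.48% passed the unadjusted threshold lower and 17.2% were lower without overlap. The 4 trabecular meshwork markers were also all lower, 3 of them without overlap. The 8 neuron and axon markers summed to 78.8, 122 and 84.0 CPM in DBA/2J and 110 and 218 CPM in Gpnmb+, and 1 was called lower. In the 9 pigment cell markers 5 were lower and 4 higher, 1 was called lower, and the sums overlapped at 3867 to 5074 CPM and 4119 and 4846 CPM. The part of these cells in the Kcnip3 result was not tested.

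Among the tested voltage-gated pores, Kcnc4 had the log2 fold change farthest from 0. It encodes a fast-inactivating Kv3-type channel and lies at chr3:107345603-107367781 on the minus strand. Kcnc4 had 96, 115 and 194 counts in DBA/2J, against 511 and 489 in Gpnmb+, again with no overlap between the genotypes. The levels were 3.06 ± 1.14 CPM (SD, n = 3) and 10.03 ± 0.0526 CPM (SD, n = 2), and the log2 fold change of -1.71 (95% interval -2.44 to -0.98) missed the threshold at an adjusted p of 0.0721 in edgeR's test. DESeq2 called it (adjusted p = 2.6e-05). Kcnc2, another channel of the same family, had 47, 97 and 62 counts against 87 and 110, pools that overlap.

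Kcnb2, a delayed rectifier, had 123, 115 and 105 counts in DBA/2J, against 41 and 64 in Gpnmb+, higher in every DBA/2J pool, with log2 fold change 1.30 (95% interval 0.60 to 1.99, adjusted p = 0.112, edgeR). Kcna4, a rapidly inactivating channel, had 60, 76 and 51 counts against 36 and 30, with log2 fold change 1.10 (adjusted p = 0.171, edgeR). Both had low levels, with means of 0.0924 and 0.216 RPKM. Kcna5 had 218, 204 and 124 counts against 51 and 144 and overlapped between genotypes. The most abundant Kcna genes were Kcna2 (731, 1175 and 1310 counts against 1283 and 1226) and Kcna6 (279, 392 and 340 against 453 and 458), with log2 fold changes of -0.05 and -0.25 and overlapping pools.

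The Kcnq genes encode channels that open near the resting potential. Kcnq3, best known from the neuronal M-current, had 40, 40 and 52 counts in DBA/2J, against 104 and 110 in Gpnmb+, with log2 fold change -1.10 (95% interval -1.69 to -0.52, adjusted p = 0.110, edgeR). Kcnq1, the channel of heart and secretory epithelia, had 187, 166 and 181 counts against 379 and 232. In edgeR its log2 value was -0.59 at an adjusted p of 0.284, and became -0.23 without Gpnmb+ pool 1 and -0.88 without Gpnmb+ pool 2. No pool of either gene overlapped the other genotype, although the Kcnq1 counts share exons with the opposite-strand transcript Kcnq1ot1 and are uncertain. Kcnq5, which has more RNA than either, had 12.5, 10.6 and 16.5 CPM against 14.0 and 15.3 CPM and overlapped between genotypes.

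The ether-a-go-go genes Kcnh1 and Kcnh2 overlapped between the genotypes. Kcnh1 had 2847, 3260 and 2819 counts in DBA/2J, against 3493 and 2860 in Gpnmb+. Its 95% interval around a log2 fold change of 0.09 ran from -0.21 to 0.39 and lay within 1.5-fold either way. Kcnh2, the cardiac repolarizing channel known as ERG, had 328, 344 and 441 counts against 357 and 391, with log2 fold change 0.17 (95% interval -0.26 to 0.59). Intervals within 1.5-fold were also found for Kcnab1, Kcnab2, Kcnj2, Kcnj8 and Kcnk6, 6 of the 83 tested members in all.

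The silent subunits Kcnf, Kcng, Kcns and Kcnv carry the selectivity filter letters but form no current alone, and they join other voltage-gated subunits and change their gating. Of the 10 tested members 5 had a log2 fold change above 0 and 5 below. The unadjusted p-value with 1.5-fold was passed by 3 each way, although none was called in edgeR. Over all genes tested 4.2% passed it higher and 4.48% lower. Lower in DBA/2J were Kcnf1 (36, 57 and 44 counts against 104 and 156), Kcns3 (37, 37 and 52 against 106 and 118) and Kcng3 (12, 10 and 16 against 25 and 28). Their log2 fold changes were -1.33, -1.24 and -0.88, with adjusted p-values of 0.134, 0.103 and 0.311 in edgeR. Higher were Kcng4 (358, 423 and 505 counts against 273 and 124), Kcng1 (14, 20 and 26 against 7 and 9) and Kcns2 (36, 47 and 21 against 14 and 21). Their log2 fold changes were 1.30, 1.48 and 1.16, with adjusted p-values of 0.158, 0.206 and 0.309 in edgeR. After scaling to library size the pools of none of these 6 genes overlapped between the genotypes, as in 34.5% of all genes tested. The 6 were picked by p-value and fold in the same fit, so this adds no separate support.

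**Figure D3:**
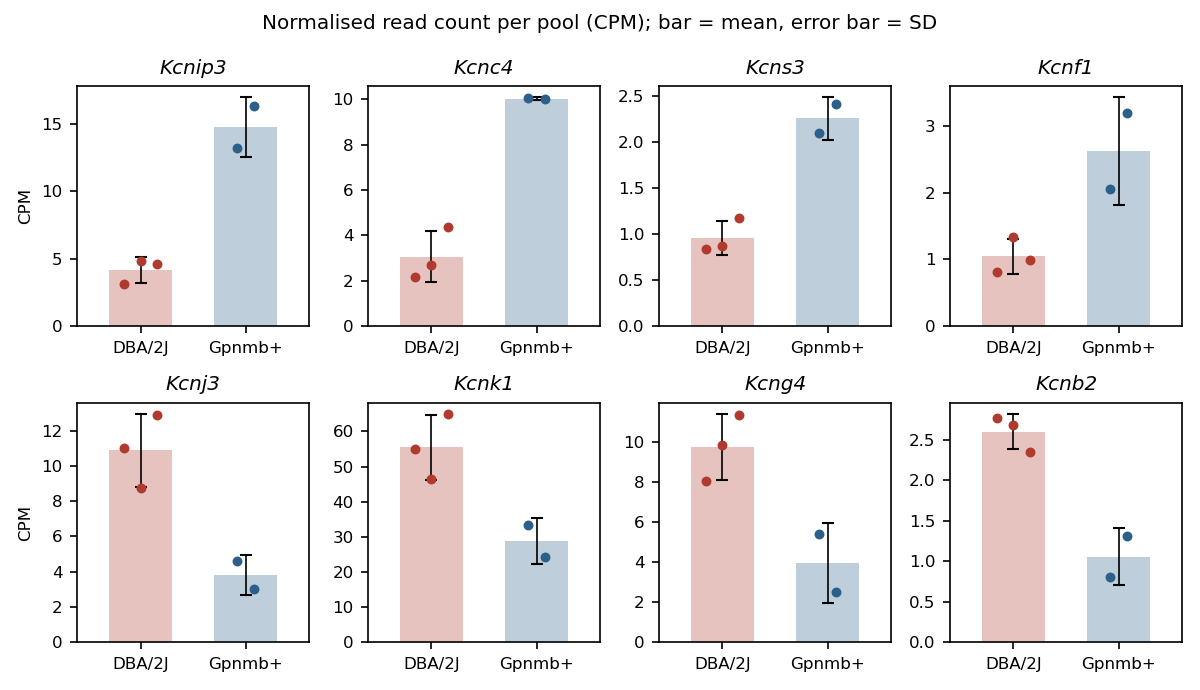
CPM per pool (points), mean (bar) and SD (error bar) for 8 Kcn genes in 3 DBA/2J pools and 2 Gpnmb+ pools. In the upper row Kcnip3, Kcnc4, Kcns3 and Kcnf1 are lower in every DBA/2J pool, and in the lower row Kcnj3, Kcnk1, Kcng4 and Kcnb2 are higher in every DBA/2J pool.

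Inward rectifiers pass potassium more easily into than out of the cell and hold the resting potential. Kcnj3 encodes GIRK1, a subunit opened by G proteins downstream of muscarinic and other receptors, and lies at chr2:55325801-55488157 on the plus strand. Kcnj3 had 490, 376 and 574 counts in DBA/2J, against 234 and 147 in Gpnmb+, higher in every DBA/2J pool. The levels were 10.9 ± 2.06 CPM (SD, n = 3) and 3.81 ± 1.14 CPM (SD, n = 2). The log2 fold change of 1.51 (95% interval 0.88 to 2.15) was the highest among the tested members and missed the threshold at an adjusted p of 0.0717 in edgeR's test. DESeq2 called it (adjusted p = 8.3e-06). Exons of an opposite-strand gene overlap 1282 bases of Kcnj3, and no source gives the strand setting of the counting.

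Partners of Kcnj3 in GIRK channels were scarce. Kcnj5 had 8, 28 and 10 counts against 17 and 30, Kcnj9 had 22, 59 and 39 against 40 and 88, and Kcnj6 stayed below the count minimum. None of the abundant inward rectifiers passed the adjusted or the unadjusted threshold with 1.5-fold. Kcnj13 had 2532, 1904 and 2200 counts against 1961 and 1908, with log2 fold change 0.37 (95% interval 0.07 to 0.67, adjusted p = 0.231, edgeR). Kcnj15 had 3210, 2233 and 2651 against 2669 and 1609, a log2 fold change of 0.52 with overlapping pools. Kcnj8, the pore of the vascular ATP-sensitive channel, had 436, 288 and 442 counts against 478 and 408, a log2 fold change of -0.01. Its partner Abcc9 had 1784, 1559 and 2030 counts against 2360 and 2230, with log2 fold change -0.18 (adjusted p = 0.494, edgeR).

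Tandem-pore leak channels set the background potassium conductance. Kcnk1, at chr8:126721842-126757440 on the plus strand, had 2451, 1993 and 2899 counts in DBA/2J, against 1697 and 1184 in Gpnmb+. Every DBA/2J pool was higher, with levels of 21.9 ± 3.67 RPKM (SD, n = 3) and 11.4 ± 2.58 RPKM (SD, n = 2). The log2 fold change was 0.95 (95% interval 0.47 to 1.42, adjusted p = 0.1003, edgeR), and DESeq2 called it. Kcnk5, the alkali-activated channel TASK-2 of transporting epithelia, went the other way with 722, 604 and 488 counts against 1330 and 944. For Kcnk5 the log2 fold change was -0.73 (95% interval -1.24 to -0.22, adjusted p = 0.181, edgeR), and its pools did not overlap either. Of the 10 tested Kcnk members 4 had a log2 fold change above 0 and 6 below.

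Markers of the nonpigmented ciliary epithelium were higher in the same pools as Kcnj3 and Kcnk1. All 8 markers had a log2 fold change above 0, with a median of 1.30, and 2 were called, Six6 and Col9a1. The unadjusted p-value with 1.5-fold was passed by 7, and 7 had pools that did not overlap between the genotypes. Of all genes tested 0.502% were called higher, 4.2% passed the unadjusted threshold higher and 17.3% were higher without overlap. The log2 fold changes of the 8 markers ran from 0.000387, which is no change, to 2.06. Together the 8 markers reached 433, 479 and 558 CPM in DBA/2J and 233 and 162 CPM in Gpnmb+, with none at 0. The 10 skeletal muscle markers also had log2 fold changes above 0, with 0 called in edgeR, 3 at an unadjusted p-value with 1.5-fold, and sums of 290, 370 and 694 CPM against 287 and 179 CPM. The part of either tissue in the Kcn differences was not tested.

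Channels opened by intracellular calcium or sodium form another class of pores. None of the 8 members passed even the unadjusted threshold with 1.5-fold. Kcnma1, the pore of the large-conductance BK channel, had 549, 679 and 726 counts in DBA/2J, against 799 and 994 in Gpnmb+, with log2 fold change -0.28 (95% interval -0.71 to 0.15). Kcnn3, a small-conductance channel, had 859, 923 and 989 counts against 894 and 689, with log2 fold change 0.41 (adjusted p = 0.249, edgeR).

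Accessory BK subunits were measured beside their pore. Kcnmb1, the smooth muscle beta subunit that raises calcium sensitivity, had 122, 179 and 170 counts in DBA/2J, against 382 and 267 in Gpnmb+, lower in every DBA/2J pool. Its log2 fold change was -0.86 (95% interval -1.46 to -0.26, adjusted p = 0.180, edgeR). The 8 smooth muscle and pericyte markers summed to 1350, 1366 and 1248 CPM in DBA/2J and 1483 and 1403 CPM in Gpnmb+, 7 of them lower, with a median log2 fold change of -0.13 and 0 called in edgeR or at an unadjusted p-value with 1.5-fold. Their part in the Kcnmb1 difference was not tested. The gamma-type BK subunit Lrrc38 had 211, 279 and 333 counts against 143 and 87, with log2 fold change 1.44 (adjusted p = 0.101, edgeR), and Lrrc55 had 81, 77 and 137 against 53 and 58, a log2 fold change of 1.00.

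Among the other accessory genes, Kcnab1 had 1543, 1649 and 1862 counts in DBA/2J, against 1991 and 1827 in Gpnmb+. This gave a log2 fold change of -0.00 (95% interval -0.25 to 0.25). Kcne4 varied inside DBA/2J, with 1116, 470 and 650 counts against 951 and 1134. Kcne5, an X-linked subunit that suppresses Kcnq1 current, had 89, 89 and 78 counts against 58 and 47, with log2 fold change 0.88 (adjusted p = 0.163, edgeR). Kcnrg, which lowers the assembly of voltage-gated channels, had at most 16 counts in any pool.

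The 14 partner genes outside the Kcn symbols, which include ATP-sensitive channel receptors, dipeptidyl peptidase-like subunits, BK gamma subunits and pacemaker channels, were all tested, and 0 were called in edgeR. At an unadjusted p-value with 1.5-fold 2 passed, Lrrc38 and Lrrc55, and DESeq2 called 1. Of all genes tested 0.796% were called in edgeR, 8.67% passed the unadjusted p-value with 1.5-fold and DESeq2 called 4.7%. The log2 fold change was above 0 in 7 and below 0 in 7, with a median of 0.03. Among 10 genes of the sodium-potassium pump and the potassium cotransporters, 0 were called in edgeR, 3 passed the unadjusted p-value with 1.5-fold and DESeq2 called 3. The shares of all genes given for the partner genes apply here too. The log2 fold change was above 0 in 6 and below 0 in 4, with a median of 0.14. Atp1b3, a beta subunit of the pump, had 40939, 39314 and 42657 counts in DBA/2J, against 30599 and 21304 in Gpnmb+, with log2 fold change 0.84 (adjusted p = 0.082, edgeR). Slc12a2, the sodium-potassium-chloride cotransporter of the ciliary epithelium, had 12999, 16199 and 13664 against 22584 and 29926.

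The Gpnmb+ pools lay at least 2-fold apart in 16 of the 83 tested members (19.3%), where 9.82% of all genes did, as counted on log2 CPM with a prior count of 2. In 14 members (16.9%) Gpnmb+ pool 2 was at least 2-fold above pool 1, where 4.7% of all genes were, and in 2 members it was at least 2-fold below, where 5.12% were. Some of the 14 had few counts in Gpnmb+ pools 1 and 2, such as Kcnk10 (2 and 11), Kcnh7 (6 and 25) and Kcnk9 (7 and 21). The part of counting error in these shares was not tested. The DBA/2J pools spanned at least 2-fold in 16 members (19.3%), where 12.3% of all genes did. Kcnv2, a silent subunit known from the inner segment of photoreceptors, had 231, 311 and 297 counts in DBA/2J, 154 in Gpnmb+ pool 1 and 1055 in Gpnmb+ pool 2. Kcnj14 had 135, 182 and 139 counts against 74 and 426. For both Gpnmb+ pool 2 was the highest of the 5 pools and Gpnmb+ pool 1 the lowest.

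The difference in log2 CPM (prior count 2), Gpnmb+ pool 2 minus pool 1, was 2.81 for Kcnv2 and 2.54 for Kcnj14, and the plain CPM ratios were 7.11-fold and 5.97-fold. By plain CPM ratio the 8 photoreceptor markers were 5.09-fold to 6.81-fold higher in pool 2. Of the 8 neuron and axon markers 3 were also at least 2-fold higher in pool 2, by 2.16-fold to 5.24-fold, and so were 4 of the 6 lens fiber markers tested, although the lens sums were close at 17.8 and 16.3 CPM. Among the less abundant members, Kcne2 had a log2 difference of 1.99, and Kcnh7, Kcnk10, Kcnc1, Kcna5, Kcnip1, Kcnk9, Kcnmb2, Kcnj9 and Kcnt1 lay between 1.03 and 1.78. Lower in Gpnmb+ pool 2 were Kcnj16 (-1.23) and Kcng4 (-1.07). The part of photoreceptor, neuronal or lens RNA in these differences was not tested.

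The genotype comparison of Kcnv2 depended on which Gpnmb+ pool was used. With all pools the log2 fold change of Kcnv2 was -0.95 (95% interval -2.66 to 0.77). Without Gpnmb+ pool 1 it was -1.76 and called (adjusted p = 0.0381, edgeR), and without Gpnmb+ pool 2 it was 1.07 (adjusted p = 0.271, edgeR). No direction can be given for it. Each of these fits leaves 1 Gpnmb+ pool, which is assumed to vary like the DBA/2J pools.

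**Figure D4:**
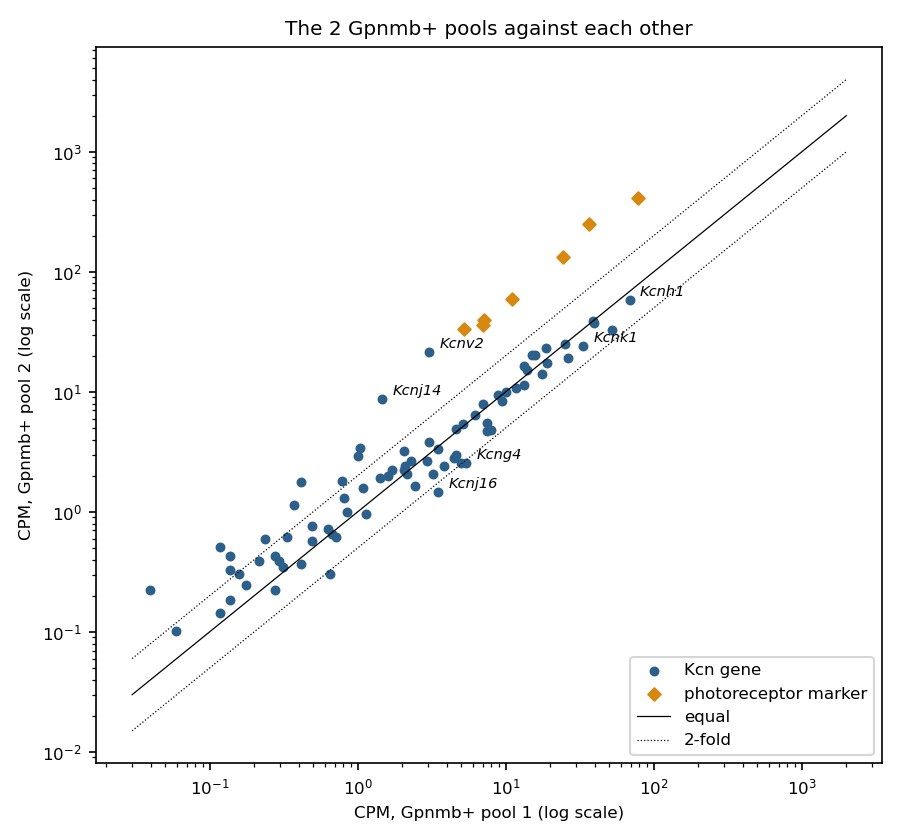
CPM of tested Kcn genes (blue) and of 7 photoreceptor markers (orange) in Gpnmb+ pool 1 (x, log axis) and pool 2 (y, log axis), with lines at equality and at 2-fold. Kcnv2 and Kcnj14 lie above the upper 2-fold line with the photoreceptor markers, while Kcnk1 and Kcnh1 lie within 2-fold.

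Overlapping genes limited the reading of many members. Exons of 46 members, 43 of them tested, overlap those of a gene on the opposite strand, and 1 member shares exonic bases with a gene on its own strand. Their counts are uncertain, because the counting strand is not given. Kcnip3, Kcnc4, Kcnf1, Kcns3, Kcnq3, Kcnmb1, Kcnk5 and Kcnv2 have no such overlap. Among genes higher in DBA/2J at the unadjusted threshold, Kcnk1 (179 bases), Kcng4 (232 bases), Kcnb2 (302 bases), Kcng1 and Kcnj3 have an opposite-strand overlap. Kcna4, Kcne5 and Kcns2 do not.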

How the data were processed

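The 5 pools of mouse iridocorneal tissue were each sequenced as 1 library. According to the labels and the study's methods, the authors used fastp for trimming and STAR for alignment to GRCm39. The deposited values are raw counts per gene of reads with a unique alignment, without normalization. Tool versions and the counting strand are not given in the sources used here. No library column was left out.

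Symbols, positions and exon lengths came from GENCODE M39, which held 56323 of the 56941 identifiers. A gene was tested where any pool reached 10 counts. The test used edgeR 4.0.16 in R 4.3.3 (TMM scaling, quasi-likelihood test, no covariate, Benjamini-Hochberg adjustment over all 19713 genes). A prior count of 2 was set for log2 CPM values alone. Calls needed both a 1.5-fold change and an adjusted p no larger than 0.05. Standard errors and intervals were calculated back from each log2 fold change and its quasi-likelihood p-value, through the t distribution. RPKM used TMM-scaled library sizes and the union of exons. A group at or under 3 counts was read as at the floor, for counting error only. edgeR's common biological coefficient of variation was 20.74%. Tables and figures were made in Python 3.11.15 with pandas 2.3.3, numpy 2.4.6 and matplotlib 3.10.9.

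Named members were those called, those with an unadjusted p no larger than 0.05 and 1.5-fold, the 1 or 2 most abundant of each class, and the 5 highest and 5 lowest log2 fold changes with a mean of at least 50 counts. Other members are given by counts, ranges or beside a related gene, a choice made after their values were seen. The members, partner, pump and marker lists and the alternatives were chosen with earlier results of these data known. Alternatives were DESeq2 1.42.0 (the study's tool), its size factors in edgeR, limma-voom (limma 3.58.1), edgeR's filterByExpr, no count filter, no fold minimum, unadjusted p-values, a replicate block, the longest transcript as length, and each pool left out in turn. Proteomics data were not analysed here, and some of these genes are not reported.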

Additional observations from a re-analysis of the deposited data

How the results depend on the processing

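The number of Kcn genes called, 1 in edgeR (0 higher and 1 lower in DBA/2J), was 11 with DESeq2 (4 higher, 7 lower), 2 with limma-voom (both lower), 3 without a count filter (1 higher, 2 lower) and 18 with unadjusted p-values (9 higher, 9 lower). Kcnip3 was called in each of these. With each pool left out it ran from 0 to 2, all of them lower, and the highest, with Kcnv2 among them, was without Gpnmb+ pool 1. The number of members at an unadjusted p-value with 1.5-fold, 18 with all pools, ran from 14 to 19 with a pool left out, an alternative chosen after seeing the data. Partner genes went from 0 called to 1 with DESeq2 and 2 with unadjusted p-values. Pump and cotransporter genes went from 0 to 3 with DESeq2, 1 without a count filter and 3 with unadjusted p-values, and ran from 0 to 2 with a pool left out. Over all genes the 157 called became 927 with DESeq2, 360 without a count filter and 1710 with unadjusted p-values, and ran from 1 to 217 with a pool left out. The causes were not tested.

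With the pool number as a replicate block, edgeR called 4 Kcn genes (2 higher, Kcnj3 and Kcnk1, and 2 lower, Kcnc4 and Kcnip3) and 220 of all genes. The labels say nothing of a shared litter or day behind the numbers. The DBA/2J pool whose number no Gpnmb+ pool shares adds nothing to the genotype comparison in the block fit. Deviations from the group mean correlated at 0.279 and 0.254 for the same numbers, and at -0.254 and -0.279 for crossed numbers. With 2 Gpnmb+ pools their deviations are mirror images, so the crossed values are forced to the opposite sign. The 2 same-number values are therefore not independent, and they cannot decide whether the numbers mark true pairs.

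Some log2 fold changes, most of them near 0, changed sign. Kcnab1 was 0.0056 with DESeq2 and with its size factors and 0.020 without a count filter. With the block Kcnrg was -0.092. With each pool left out, Kcna2 ran from -0.20 to 0.17, Kcnab1 from -0.066 to 0.066, Kcnh1 from -0.023 to 0.21, Kcnrg from -0.21 to 0.74 and Kcnv2 from -1.76 to 1.07. With the longest transcript as length 36 members reached 1 RPKM, against 32. Of the values under the alternatives, 329 kept their direction and their side of the threshold. Another 12 changed sign, 17 moved past the threshold and 5 moved short of it, all 5 of them for Kcnip3. Apart from Kcnip3 no named gene was called in the main fit, so keeping its side meant staying uncalled. Depth was low, with a mean under 50 counts, in 26 of the 83 tested members.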
